A study of Mus musculus with 8 samples.

Results

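Mouse hearts that received the nanocage iFTn-MR4 after ischemia-reperfusion were compared with hearts that received the nanocage iFTn-M4, using 4 of the 8 RNA sequencing libraries of the series, 2 per group. All 17788 genes of the table that holds the nanocage groups entered, of 18144 genes listed in either of the series' tables, including 1093 that the table of the PBS-treated hearts does not list. Both groups had ischemia-reperfusion, in which blood flow to heart muscle is stopped and restored, and both were given 2 doses of a protein nanocage at 2.5 mg/kg protein, 1 every other day. RNA was taken 3 days later from heart tissue, and messenger RNA was selected by its poly(A) tail. One more nanocage, iFTn-R4, was given by the same schedule and shares the table, and its 2 libraries entered the estimate of the spread and the gene filter, with its levels shown beside a few results and not compared. The labels do not spell out what the letters M and R stand for, and they give no strain, sex or age. They also do not say that a group's 2 libraries were made from different mice, and p-values therefore describe only how far these samples spread, which may be technical. The series' title names the nanocages as nanozymes that scavenge superoxide inside cells.

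Superoxide is a reactive form of oxygen made by mitochondria and by the NADPH oxidase of phagocytes when blood flow returns to heart muscle. Superoxide dismutases turn it into hydrogen peroxide, which catalase, glutathione peroxidases and peroxiredoxins remove. In the days after such an injury monocytes enter the heart and become macrophages, fibroblasts and macrophages divide, and fibroblasts lay down matrix, while surviving muscle cells express fetal and stretch-induced genes such as the natriuretic peptides.

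Levels are given as CPM, expected counts scaled by the normalised library size, and a log2 fold change is iFTn-MR4 over iFTn-M4, so a negative value is a lower level in iFTn-MR4 hearts. A gene is said to have risen or fallen where its Benjamini-Hochberg adjusted p from edgeR's quasi-likelihood test over 6 libraries was under 0.05. Total expected counts were 13618588 and 13884035 in the iFTn-MR4 libraries and 13908143 and 14537959 in the iFTn-M4 libraries. At this depth 3 counts in a library stand for 0.207 to 0.227 CPM. The defining genes of heart muscle were abundant in all 4 libraries, with Myh6, the alpha myosin heavy chain, at 29109 and 27595 CPM in iFTn-MR4 hearts and at 23570 and 26233 CPM in iFTn-M4 hearts, a difference that did not pass (adjusted p = 0.54). Myh6 has split counts, that is, reads shared with another gene, so its value is uncertain.

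Some libraries stood apart in markers of other heart cells. The first iFTn-MR4 library held 262 counts of the atrial light chain gene Myl7, against 17 in the second iFTn-MR4 library and 2 and 10 in the iFTn-M4 libraries. Sarcolipin (Sln), a regulator of the atrial calcium pump, had 93 counts in the first iFTn-MR4 library and 0 in the other iFTn-MR4 library and in both iFTn-M4 libraries. Myl4, another atrial light chain gene, had 298 and 58 counts in iFTn-MR4 hearts, against 35 and 22 in iFTn-M4 hearts. Kcna5, Kcnj3 and Stard10, counted beside them, did not set that library apart. Kcna5 had 432 and 307 counts in iFTn-MR4 hearts, against 446 and 649 in iFTn-M4 hearts. Kcnj3 had 717 and 747, against 621 and 744, and Stard10 had 265 and 239, against 192 and 201. The summed level of 7 markers of the mesothelium, the outer lining of the heart, was 53.7 and 13.1 CPM in iFTn-MR4 hearts against 62.0 and 85.5 CPM in iFTn-M4 hearts, with the second iFTn-MR4 library lowest. Red cell markers summed to 1121 and 320 CPM in iFTn-MR4 hearts, against 714 and 1123 CPM in iFTn-M4 hearts, so the groups overlapped. The adipocyte gene Cfd was at 5.84 and 0.149 CPM in iFTn-MR4 hearts, against 0.718 and 0.553 CPM in iFTn-M4 hearts. The skeletal muscle myosin gene Myh4 was at 0 in all 4 libraries, and the 4 airway and lung epithelium markers in the table summed to at most 0.144 CPM.

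**Figure D1:**
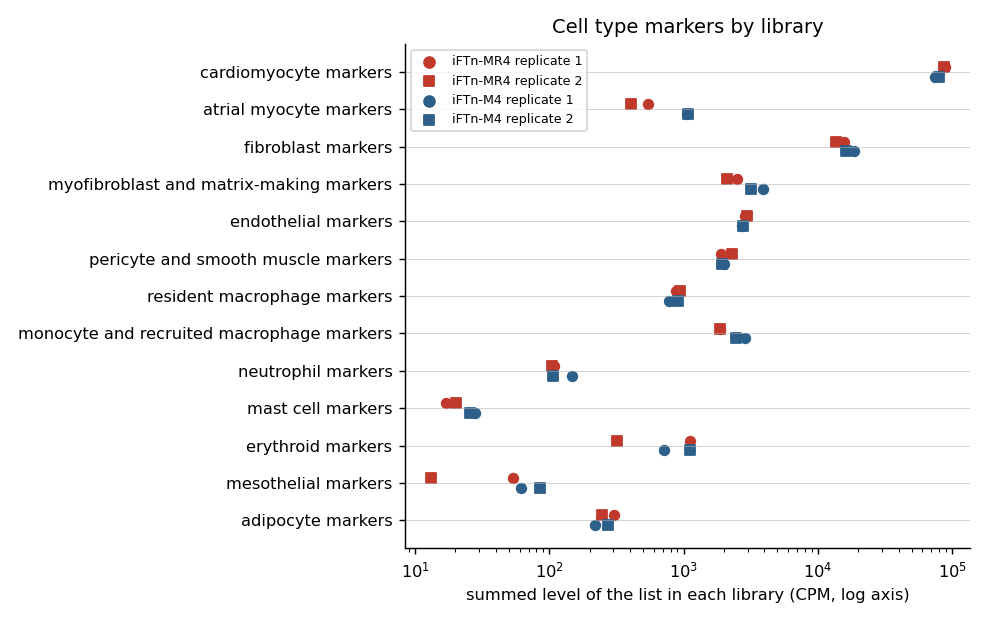
Summed level (CPM, log axis) of the marker lists of 13 cell types in the iFTn-MR4 libraries (red) and the iFTn-M4 libraries (blue), with a circle for replicate 1 and a square for replicate 2. The list of monocyte and recruited macrophage markers lay at 1864 and 1875 CPM in iFTn-MR4 hearts, below 2870 and 2465 CPM in iFTn-M4 hearts, while resident macrophage markers overlapped; the atrial list includes Nppa, which makes up most of its sum.

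Relative to iFTn-M4 hearts, iFTn-MR4 hearts had lower levels of the atrial natriuretic peptide gene Nppa, of genes known from macrophages, of the lysosomal genes Ctsz and Gla, of the monocyte-attracting chemokines Ccl7 and Ccl12, and of the matrix genes Ccn2 and Aspn, and a higher level of Rrad. In all, 27 of the 13846 genes tested changed (0.195%), of which 26 fell (0.188%) and 1 rose (0.00722%). The falls were 1.46-fold to 2.95-fold. For all 27 genes both libraries of 1 group lay above both of the other, which was the case for 27.8% of tested genes with iFTn-MR4 below and 26.7% with iFTn-MR4 above. At an unadjusted p under 0.05 there were 2319 genes. The count differed with the libraries in the fit. The iFTn-R4 replicates lay further apart than the others: the SD of their log2 difference over 12003 genes was 0.279, against 0.210 for iFTn-MR4 and 0.217 for iFTn-M4. A fit of only the 4 libraries compared called 706 of 13644 genes (5.17%), with 480 lower (3.52%) and 226 higher (1.66%) in iFTn-MR4 hearts, and all of the 27 were among them. That count was 212 without the first iFTn-MR4 library, 77 without the second, 457 without the first iFTn-M4 library and 1841 without the second (802 higher and 1039 lower, of 13814 genes tested). Genes that pass in that fit alone are given below as passing with 4 libraries, and are not described as risen or fallen. Leaving out single libraries from the 6-library fit left 1 gene (Nppa) without the first iFTn-MR4 library, 0 without the second, 1 (Lgals3) without the first iFTn-M4 library and 10 without the second, of which 5 were among the 27. With a correction for a trend with transcript length 6 genes passed, namely Nppa, Adam8, Lgals3, Hk3, D17H6S56E-5 and Rrad.

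**Figure D2:**
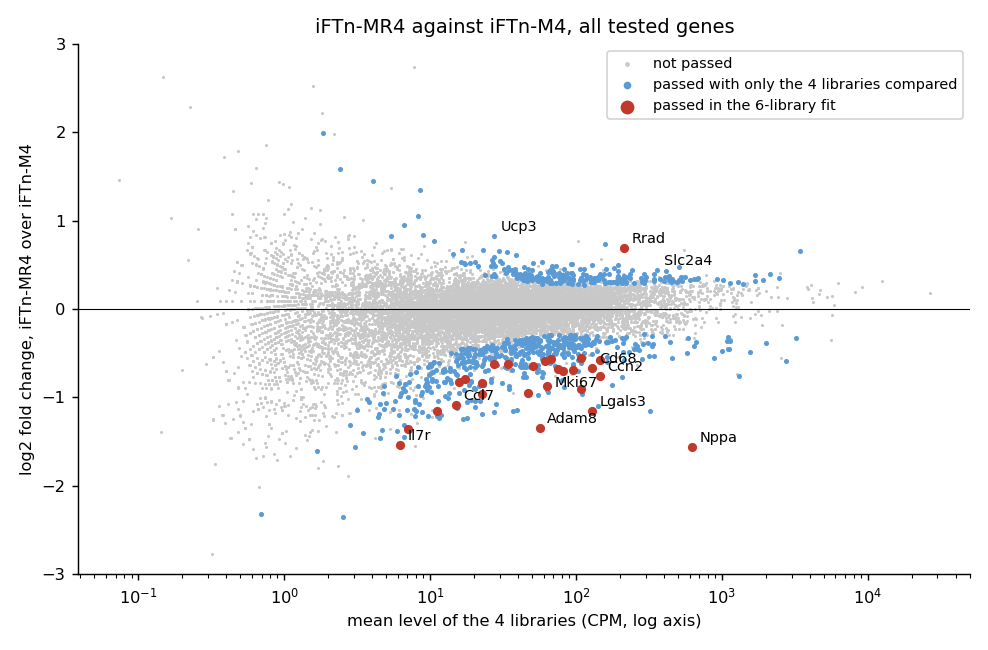
Log2 fold change of iFTn-MR4 over iFTn-M4 against the mean level of the 4 libraries (CPM, log axis) for the genes tested. The 27 genes that changed (red) lie below 0 except Rrad, and the genes passing with only the 4 libraries (blue) lie on both sides, with 480 lower and 226 higher in iFTn-MR4 hearts; 7 genes lie outside the vertical range.

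Nppa encodes atrial natriuretic peptide, a hormone that the ventricle makes again under wall stress. It lies on chromosome 4 at 148000722 to 148002074 (all gene positions are in build GRCm38.p6). Nppa was at 352 and 284 CPM in iFTn-MR4 hearts, against 941 and 935 CPM in iFTn-M4 hearts. It fell by 1.56 ± 0.11 on the log2 scale (SE; 95% interval -1.82 to -1.31; adjusted p = 0.0028), and over the 25 alternatives the adjusted p ran from 2.2e-55 to 0.126. Both iFTn-MR4 libraries lay below both iFTn-M4 libraries, and the first iFTn-MR4 library held the most counts of the atrial light chain gene Myl7. The part of atrial tissue in this value was not tested. The related peptide gene Nppb was at 192 and 229 CPM in iFTn-MR4 hearts and at 244 and 234 CPM in iFTn-M4 hearts, and did not pass (-0.19; adjusted p = 0.445). Of the 17 tested genes of natriuretic peptides and stretch responses Nppa alone passed, where 0.188% of all genes fell. Ankrd1, a stretch-induced muscle ankyrin repeat protein, was at 1801 and 1817 CPM in iFTn-MR4 hearts, against 1896 and 1882 CPM in iFTn-M4 hearts (-0.06; adjusted p = 0.82). Myh7, the fetal beta myosin heavy chain gene, was at 3740 and 4707 CPM in iFTn-MR4 hearts, against 3076 and 2275 CPM in iFTn-M4 hearts, and passed with 4 libraries only. Its counts are split with another gene, so this value is uncertain.

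Rrad, on chromosome 8 at 104628070 to 104631350, encodes a small GTPase that restrains the L-type calcium channel of heart muscle. It was at 248 and 282 CPM in iFTn-MR4 hearts, against 164 and 165 CPM in iFTn-M4 hearts. It rose by 0.69 ± 0.09 on the log2 scale (SE; adjusted p = 0.041), and was the 1 gene to do so. Among genes of calcium handling 12 of 16 were higher in both iFTn-MR4 libraries, against 26.7% of all genes. In the 6-library fit 0 passed, and 2 passed with higher levels with 4 libraries, against 1.66% of all genes. Atp2a2, the calcium pump of the sarcoplasmic reticulum, was at 13409 and 14095 CPM in iFTn-MR4 hearts and at 10231 and 11916 CPM in iFTn-M4 hearts (0.31; adjusted p = 0.28).

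Of genes expressed in macrophages and other myeloid cells, Adam8, a membrane metalloprotease of leukocytes on chromosome 7 at 139978932 to 139995207, was at 30.9 and 33.0 CPM in iFTn-MR4 hearts, against 79.3 and 83.7 CPM in iFTn-M4 hearts. It fell by 1.35 ± 0.10 on the log2 scale (SE; adjusted p = 0.0028), with adjusted p between 8.3e-23 and 0.126 over the alternatives. Lgals3, which encodes the macrophage lectin galectin-3, was at 77.9 and 81.6 CPM in iFTn-MR4 hearts, against 162 and 194 CPM in iFTn-M4 hearts. It fell by 1.16 ± 0.10 (SE; adjusted p = 0.0061). Cd68, a lysosomal membrane glycoprotein used as a macrophage marker, was at 96.6 and 103 CPM in iFTn-MR4 hearts and at 154 and 163 CPM in iFTn-M4 hearts, and fell by 0.67 (adjusted p = 0.037). Hk3, the hexokinase isoform of myeloid cells, was at 15.4 and 15.3 CPM in iFTn-MR4 hearts and at 31.6 and 28.2 CPM in iFTn-M4 hearts, and fell by 0.97 (adjusted p = 0.025). The fatty acid-binding protein gene Fabp5 was at 72.5 and 77.0 CPM in iFTn-MR4 hearts and at 153 and 128 CPM in iFTn-M4 hearts, and fell by 0.91 (adjusted p = 0.037). In none of these genes did the groups overlap. In RNA from whole tissue, fewer cells of a type and less RNA per cell cannot be told apart.

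Further genes that fell and are known from leukocytes were the inhibitory receptor gene Cd300lf, the tetraspanin gene Cd53, the signalling adaptor Lat2 and the lysosomal peptide transporter Slc15a3, with log2 fold changes of -1.15, -0.58, -0.79 and -0.84. The inhibitory receptor gene Lilrb4a fell by 0.68, with counts split with another gene. Capg and Cotl1, which bind actin filaments, fell by 0.70 and 0.69. Il7r, the alpha chain of the interleukin 7 receptor, was at 3.11 and 3.27 CPM in iFTn-MR4 hearts, against 9.40 and 9.19 CPM in iFTn-M4 hearts, and fell by 1.54 ± 0.19 (SE; adjusted p = 0.037). The other genes that fell were the amino acid transporter gene Slc7a8 (-0.62), the sugar-phosphate exchanger gene Slc37a2 (-0.63), Depp1 (-0.95), Lhfpl2 (-0.64), D17H6S56E-5 (-0.87) and Gm39972 (-0.57, split counts).

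**Figure D3:**
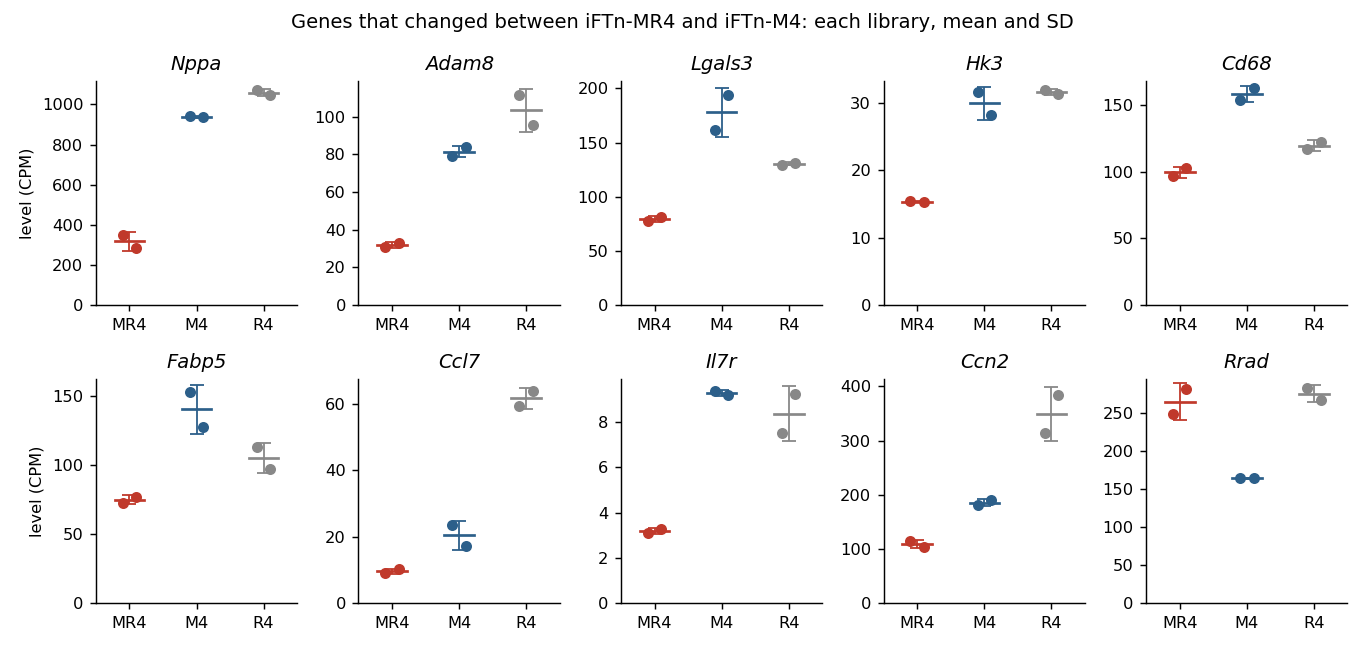
Level (CPM) of 10 of the 27 genes that changed in each library (points), with the mean and SD of the 2 libraries of iFTn-MR4 (red), iFTn-M4 (blue) and iFTn-R4 (grey, not compared). In each gene the iFTn-MR4 points lie below the iFTn-M4 points, except in Rrad, where they lie above (248 and 282 against 164 and 165 CPM).

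All 14 listed markers of monocytes and recruited macrophages had estimates below 0, against 50.1% of tested genes. Their median was -0.64, against -0.00036 over all tested genes, and 10 of 14 were lower in both iFTn-MR4 libraries, against 27.8%. Cd68 was the 1 that passed, where 0.188% of all genes fell. With 4 libraries 5 passed, against 3.52% of all genes with lower levels. Among the 5, Spp1, osteopontin, was at 157 and 239 CPM in iFTn-MR4 hearts, against 469 and 414 CPM in iFTn-M4 hearts. Gpnmb, a glycoprotein of lipid-laden macrophages, was at 136 and 117 CPM in iFTn-MR4 hearts, against 215 and 244 CPM in iFTn-M4 hearts. Trem2, a lipid-sensing receptor of macrophages, was at 28.04 and 24.03 CPM in iFTn-MR4 hearts, against 43.2 and 39.6 CPM in iFTn-M4 hearts. The 10 markers of resident macrophages had a median of 0.10, with 0 passing in the 6-library fit and 1 passing with a lower level with 4 libraries. Neutrophil markers summed to 108 and 104 CPM in iFTn-MR4 hearts and to 147 and 107 CPM in iFTn-M4 hearts, with 0 of 12 tested passing in the 6-library fit and 0 of 11 with 4 libraries. S100a8, a calcium-binding protein of neutrophils, was at 3.87 and 4.76 CPM in iFTn-MR4 hearts and at 10.55 and 2.56 CPM in iFTn-M4 hearts, so the groups overlapped.

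Of the lysosome list 2 of 26 genes fell, against 0.188% of all genes tested. Ctsz, cathepsin Z, was at 120 and 114 CPM in iFTn-MR4 hearts, against 177 and 172 CPM in iFTn-M4 hearts, and fell by 0.58 (adjusted p = 0.042). Gla, the alpha-galactosidase that cleaves lysosomal glycolipids, was at 10.9 and 11.8 CPM in iFTn-MR4 hearts, against 20.02 and 20.04 CPM in iFTn-M4 hearts, and fell by 0.82 (adjusted p = 0.049). In 20 of 26 genes both iFTn-MR4 libraries were lower, against 27.8% of all genes. With 4 libraries 10 passed, against 3.52% of all genes with lower levels, or 3 and 2 without the first or the second iFTn-MR4 library and 6 without the first iFTn-M4 library. Among the 10 was the lysosomal lipase Lipa (-0.50). These lysosomal genes moved with the recruited macrophage markers, whose part in the result was not tested.

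Of the chemokines, which draw leukocytes to a tissue, 2 of 26 tested fell, against 0.188% of all genes. Ccl7 and Ccl12 encode ligands of the monocyte receptor Ccr2. Ccl7 was at 9.02 and 10.1 CPM in iFTn-MR4 hearts, against 23.5 and 17.3 CPM in iFTn-M4 hearts, and fell by 1.09 (adjusted p = 0.0499). Ccl12 was at 3.56 and 4.31 CPM in iFTn-MR4 hearts, against 10.8 and 9.33 CPM in iFTn-M4 hearts, and fell by 1.35 (adjusted p = 0.049). Neither passed in the fit of all 8 libraries (adjusted p = 0.142 for Ccl7 and 0.083 for Ccl12) or at a minimum of 5 CPM (0.055 and 0.051), and over all alternatives the adjusted p ran from 1.2e-05 to 0.413 for Ccl7 and from 0.00045 to 0.444 for Ccl12. Ccl2, of the same gene cluster on chromosome 11, was at 9.85 and 13.2 CPM in iFTn-MR4 hearts and at 27.7 and 20.4 CPM in iFTn-M4 hearts, and did not pass (-1.06; adjusted p = 0.089), though it passed with 4 libraries. In all 3 the groups did not overlap. With 4 libraries 5 of 24 chemokines tested passed, or 2 and 3 without the first or the second iFTn-MR4 library and 9 without the second iFTn-M4 library. Of 29 inflammatory cytokines and regulators 0 passed and 3 passed with 4 libraries. Among those was Il1rn, the secreted interleukin 1 receptor antagonist, at 3.33 and 4.24 CPM in iFTn-MR4 hearts and at 9.47 and 9.33 CPM in iFTn-M4 hearts (-1.31; adjusted p = 0.059). Il1b was at 3.56 and 4.98 CPM in iFTn-MR4 hearts and at 6.89 and 3.18 CPM in iFTn-M4 hearts, and the groups overlapped. Il6 was at 0.152 and 0.744 CPM in iFTn-MR4 hearts and at 1.08 and 1.04 CPM in iFTn-M4 hearts, lower in both iFTn-MR4 libraries without passing (adjusted p = 0.447), and its lowest value lies under the level of 3 counts.

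Genes of mitosis were lower in iFTn-MR4 hearts without exception in the list, although none passed in the 6-library fit. All 25 members were lower in both iFTn-MR4 libraries, against 27.8% of all tested genes, with a median log2 fold change of -0.94 and a range of -1.23 to -0.55. The summed level was 277 and 268 CPM in iFTn-MR4 hearts, against 582 and 447 CPM in iFTn-M4 hearts, and 835 and 523 CPM in the iFTn-R4 hearts that entered the estimate of the spread. With 4 libraries 21 of 25 passed, against 3.52% of all genes with lower levels. That count was 10 without the first iFTn-MR4 library, 5 without the second, 13 without the first iFTn-M4 library and 25 without the second, where 1039 of all 13814 genes tested passed with lower levels.

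The promoters of 2 of these genes are printed because every member of the list lay lower, and to show the sequence elements known from cell cycle genes. They run from 250 bases before to 50 after the start of the transcript, are given 5′ to 3′ on the gene's strand, and come from RefSeq on GRCm38.p6. Capitals mark the element TTTGAA, known from cell cycle gene promoters as the CHR, and the box CCAAT, each on either strand, so that they can also read TTCAAA and ATTGG. Mki67, whose protein Ki-67 coats mitotic chromosomes, is at chr7:135716330-135716629 on the minus strand, and Top2a, the topoisomerase that untangles replicated DNA, at chr11:99024140-99024439 on the minus strand.
Mki67: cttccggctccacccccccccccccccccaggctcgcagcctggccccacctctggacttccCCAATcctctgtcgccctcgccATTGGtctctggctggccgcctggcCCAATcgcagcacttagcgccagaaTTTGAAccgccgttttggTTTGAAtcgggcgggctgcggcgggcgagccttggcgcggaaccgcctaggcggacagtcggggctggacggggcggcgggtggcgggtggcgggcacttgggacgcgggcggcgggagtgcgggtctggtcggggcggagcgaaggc
Top2a: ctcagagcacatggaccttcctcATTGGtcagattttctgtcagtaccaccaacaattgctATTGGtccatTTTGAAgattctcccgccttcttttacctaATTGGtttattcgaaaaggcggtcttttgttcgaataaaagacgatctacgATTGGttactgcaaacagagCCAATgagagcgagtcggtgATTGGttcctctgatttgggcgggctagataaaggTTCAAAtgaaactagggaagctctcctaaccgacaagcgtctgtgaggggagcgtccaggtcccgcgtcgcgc
The element TTTGAA was found in 15 of the 21 mitosis promoters with a sequence (71.4%), against 18.1% of 27025 promoters, and CCAAT in 17 of 21 (81.0%), against 37.9%. These matches describe letters, not binding.

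Mki67 was at 43.1 and 44.6 CPM in iFTn-MR4 hearts, against 94.4 and 74.2 CPM in iFTn-M4 hearts (-0.94 ± 0.20, SE; adjusted p = 0.10). Top2a was at 30.5 and 32.7 CPM in iFTn-MR4 hearts, against 65.7 and 57.2 CPM in iFTn-M4 hearts (-0.96 ± 0.21, SE; adjusted p = 0.11). Cenpe, a motor protein of the kinetochore, was at 7.35 and 6.47 CPM in iFTn-MR4 hearts and at 17.8 and 14.7 CPM in iFTn-M4 hearts (-1.23; adjusted p = 0.060). In each of the 3 the iFTn-MR4 libraries lay close together and below both iFTn-M4 libraries. That their groups did not overlap was a condition for naming them. Of 22 genes of DNA replication 20 were lower in both iFTn-MR4 libraries, against 27.8% of all genes, with a median of -0.45. In the 6-library fit 0 passed, and with 4 libraries 7 did, where 3.52% of all genes passed with lower levels. Those 7 became 4 with DESeq2, 0 without either the first or the second iFTn-MR4 library, 3 without the first iFTn-M4 library and 12 without the second. Rrm2, the small subunit of ribonucleotide reductase, was at 7.66 and 9.97 CPM in iFTn-MR4 hearts and at 20.8 and 14.8 CPM in iFTn-M4 hearts. Mcm6, of the replicative helicase, was at 34.9 and 38.5 CPM in iFTn-MR4 hearts and at 54.7 and 49.7 CPM in iFTn-M4 hearts.

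**Figure D4:**
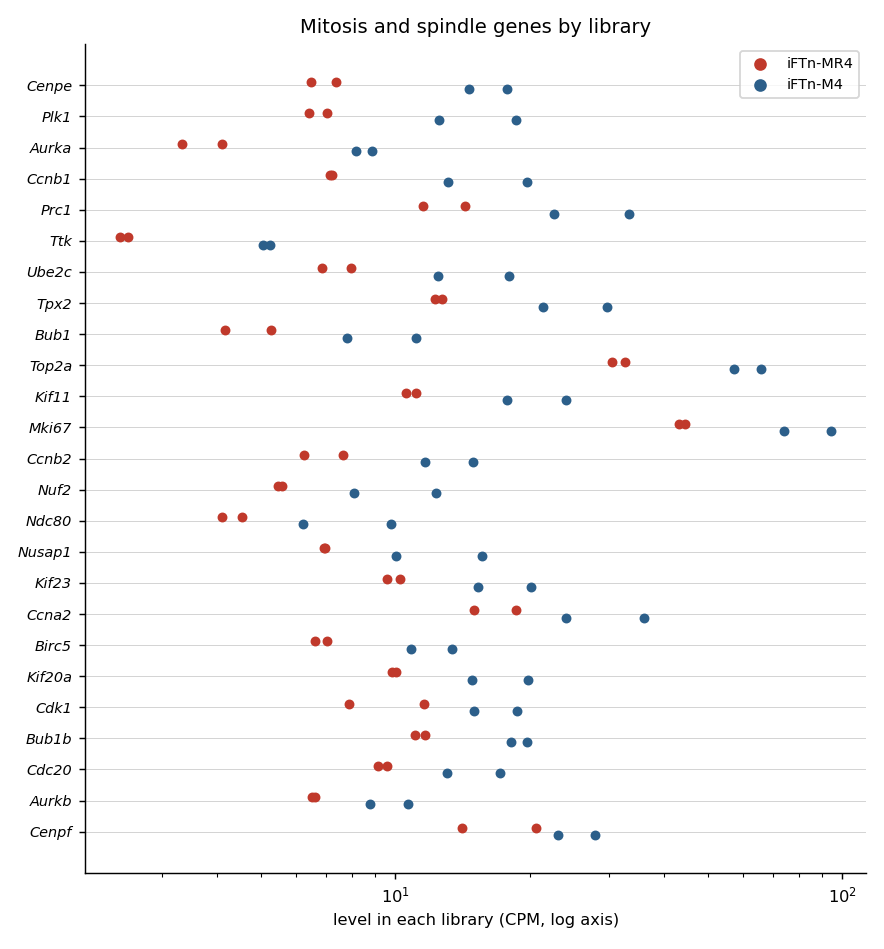
Level (CPM, log axis) of the 25 genes of the mitosis and spindle list in each iFTn-MR4 library (red) and each iFTn-M4 library (blue), ordered by log2 fold change. In all 25 rows both red points lie left of both blue points.

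Interferon-induced genes were lower as well, in most members, and in their summed level the first iFTn-M4 library was highest of the 4. The 30 tested members summed to 1242 and 1247 CPM in iFTn-MR4 hearts, against 2094 and 1494 CPM in iFTn-M4 hearts. In 27 of 30 both iFTn-MR4 libraries were lower, against 27.8% of all genes, and the median was -0.58. None passed in the 6-library fit and 11 passed with 4 libraries, against 3.52% of all genes with lower levels. That count was 4 without the first iFTn-MR4 library, 1 without the second, 10 without the first iFTn-M4 library and 28 without the second, where 1039 of all 13814 genes tested passed with lower levels. Guanylate-binding proteins and immunity-related GTPases, which are induced by interferons and attack intracellular microbes, had a median of -0.50. In both iFTn-MR4 libraries 15 of 17 were lower, against 27.8% of all genes. None passed in the 6-library fit. With 4 libraries 8 passed, against 3.52% of all genes with lower levels, and 3 of the 8 have split counts. That 8 became 2 and 3 without the first or the second iFTn-MR4 library, 4 without the first iFTn-M4 library and 12 without the second.

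Promoters of 2 of these genes are printed with their matches to the interferon-stimulated response element, which the factor ISGF3 and IRF proteins are known to bind. Capitals mark matches to 2 runs of GAAA with any 2 bases between them, on either strand, which in Isg15 overlap one another. Isg15, a ubiquitin-like modifier, is at chr4:156200769-156201068 on the minus strand, and Gbp2, a guanylate-binding protein, at chr3:142620413-142620712 on the plus strand.
Isg15: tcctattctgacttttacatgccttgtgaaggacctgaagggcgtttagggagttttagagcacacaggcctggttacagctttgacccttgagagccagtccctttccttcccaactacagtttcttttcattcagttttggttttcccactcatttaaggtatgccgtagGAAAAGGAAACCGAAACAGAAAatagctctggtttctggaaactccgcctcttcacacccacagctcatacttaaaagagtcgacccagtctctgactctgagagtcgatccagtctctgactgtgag
Gbp2: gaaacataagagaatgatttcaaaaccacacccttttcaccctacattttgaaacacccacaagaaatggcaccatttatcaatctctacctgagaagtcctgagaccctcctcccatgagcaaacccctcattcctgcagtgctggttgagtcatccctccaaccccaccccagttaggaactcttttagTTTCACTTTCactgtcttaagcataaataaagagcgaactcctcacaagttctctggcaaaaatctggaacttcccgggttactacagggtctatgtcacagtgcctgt
The element was found in 11 of the 22 interferon gene promoters and in 9 of the 10 promoters of guanylate-binding proteins and GTPases (90.0%), against 3.49% of all promoters. Of the 26 genes that fell 18 had a promoter sequence, of which 1 (5.56%) held it.

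Isg15 was at 14.9 and 13.9 CPM in iFTn-MR4 hearts, against 35.3 and 24.1 CPM in iFTn-M4 hearts (-1.04 ± 0.18, SE; adjusted p = 0.080). Gbp2 was at 51.5 and 46.9 CPM in iFTn-MR4 hearts, against 73.4 and 66.5 CPM in iFTn-M4 hearts (-0.51; adjusted p = 0.20). Irf7, a transcription factor that amplifies the type I interferon response, was at 83.1 and 77.6 CPM in iFTn-MR4 hearts and at 116 and 102 CPM in iFTn-M4 hearts (-0.44; adjusted p = 0.13). In these genes the groups did not overlap, which was a condition for naming them. Genes of class II antigen presentation had a median of 0.08 over 8 genes, with 0 passing in the 6-library fit. With 4 libraries 1 passed with a lower level, against 3.52% of all genes. The difference between the lists was not tested.

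Of 34 proteoglycans and matricellular proteins 2 fell, against 0.188% of all genes. Ccn2, connective tissue growth factor, was at 114 and 104 CPM in iFTn-MR4 hearts, against 180 and 189 CPM in iFTn-M4 hearts, and fell by 0.76 ± 0.11 (SE; adjusted p = 0.0499), a call lost at a minimum of 5 CPM (adjusted p = 0.051; 8.0e-12 to 0.544 over all alternatives). Aspn, the small leucine-rich protein asporin, was at 88.3 and 88.1 CPM in iFTn-MR4 hearts, against 123 and 135 CPM in iFTn-M4 hearts, and fell by 0.55 (adjusted p = 0.049). Neither pair of groups overlapped. With 4 libraries 16 of the 34 passed with lower levels and 1 with a higher one, and the 16 became 3 without the second iFTn-MR4 library. Of all genes 3.52% passed with lower and 1.66% with higher levels with 4 libraries. Tnc, tenascin C of remodelling tissue, was at 165 and 142 CPM in iFTn-MR4 hearts, against 261 and 262 CPM in iFTn-M4 hearts (-0.77; adjusted p = 0.22).

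Collagen chains summed to 15086 and 12689 CPM in iFTn-MR4 hearts and to 20072 and 16941 CPM in iFTn-M4 hearts. In 21 of 28 both iFTn-MR4 libraries were lower, against 27.8% of all genes, with a median of -0.30. In the 6-library fit 0 passed, and with 4 libraries 9 did, against 3.52% of all genes with lower levels. Those 9 became 6 without the first iFTn-MR4 library, 0 without the second and 15 without the second iFTn-M4 library. Col1a1, the main chain of fibrillar collagen I, was at 2436 and 1946 CPM in iFTn-MR4 hearts, against 3757 and 2809 CPM in iFTn-M4 hearts (-0.58; adjusted p = 0.25). Col8a1, a short-chain collagen, was at 90.3 and 80.2 CPM in iFTn-MR4 hearts, against 127 and 133 CPM in iFTn-M4 hearts (-0.61; adjusted p = 0.11). Markers of myofibroblasts, the contractile matrix-making fibroblasts of scars, had a median of -0.55 over 13 genes, all with estimates below 0, and 0 passed, against 6 with 4 libraries and 4 without the second iFTn-MR4 library. For lower levels with all 4 libraries the share of all genes was 3.52%. Postn, periostin, was at 934 and 757 CPM in iFTn-MR4 hearts, against 1134 and 1207 CPM in iFTn-M4 hearts (-0.47; adjusted p = 0.17). The wider fibroblast list had a median of -0.10.

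Of matrix proteases and their inhibitors Adam8 was the 1 of 23 that fell, and 7 passed with 4 libraries, or 2 without the second iFTn-MR4 library and 11 without the second iFTn-M4 library. Of all genes 0.188% fell in the 6-library fit, and 3.52% passed with lower levels with 4 libraries. Mmp12, the elastase of macrophages, was at 12.96 and 14.7 CPM in iFTn-MR4 hearts and at 25.4 and 37.6 CPM in iFTn-M4 hearts (-1.19; adjusted p = 0.080). Timp1, an inhibitor of metalloproteases, was at 34.4 and 29.8 CPM in iFTn-MR4 hearts and at 73.3 and 49.8 CPM in iFTn-M4 hearts (-0.94; adjusted p = 0.12). Neither had groups that overlapped, which for Mmp12 was a condition for naming it.

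Enzymes that remove superoxide and peroxide had a median of -0.01 over 25 genes, and 0 passed. Sod1, the cytosolic superoxide dismutase, was at 194 and 171 CPM in iFTn-MR4 hearts, between which lay the 188 and 179 CPM of iFTn-M4 hearts (-0.01; adjusted p = 0.965). Sod2, the mitochondrial dismutase, was at 508 and 501 CPM in iFTn-MR4 hearts and at 445 and 400 CPM in iFTn-M4 hearts, higher in both iFTn-MR4 libraries without passing (0.26 ± 0.10, SE; adjusted p = 0.23). The extracellular dismutase gene Sod3 was at 63.9 and 71.1 CPM in iFTn-MR4 hearts and at 71.1 and 67.7 CPM in iFTn-M4 hearts (-0.04; adjusted p = 0.86). Catalase (Cat) was at 218 and 233 CPM in iFTn-MR4 hearts and at 195 and 211 CPM in iFTn-M4 hearts (0.15; adjusted p = 0.71). The peroxidase gene Gpx1 was at 174 and 181 CPM in iFTn-MR4 hearts and at 232 and 205 CPM in iFTn-M4 hearts (-0.31; adjusted p = 0.16). Txn1, the disulfide reductant thioredoxin, was at 73.1 and 75.7 CPM in iFTn-MR4 hearts and at 101 and 95.4 CPM in iFTn-M4 hearts. It did not pass (-0.40; adjusted p = 0.084), and was the 1 of the 25 to pass with 4 libraries, with a lower level, as 3.52% of all genes did. Without the first or the second iFTn-MR4 library 0 passed, without the first iFTn-M4 library 2 passed with higher and 1 with lower levels, and without the second 1 with a higher and 7 with lower levels. Gpx1 and Txn1 did not overlap between groups, whereas Sod1 and Sod3 did.

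The list of NADPH oxidases, which make superoxide, holds Nox4 beside subunits of the phagocyte enzyme. Of its 9 genes 6 were lower in both iFTn-MR4 libraries, against 27.8% of all genes, with a median of -0.32. In the 6-library fit 0 passed. With 4 libraries 3 passed, against 3.52% of all genes with lower levels, or 2 of 8 tested with DESeq2. Cybb, the catalytic subunit of the phagocyte oxidase, was at 113 and 101 CPM in iFTn-MR4 hearts and at 148 and 119 CPM in iFTn-M4 hearts (-0.32; adjusted p = 0.255). Cyba, its partner subunit, was at 65.1 and 60.1 CPM in iFTn-MR4 hearts and at 85.5 and 78.7 CPM in iFTn-M4 hearts (-0.39; adjusted p = 0.10). These subunits moved with the monocyte and recruited macrophage markers, whose part was not tested.

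Of 19 tested genes of iron storage, uptake and haem breakdown 0 passed in the 6-library fit. With 4 libraries 2 passed with lower levels, against 3.52% of all genes. Hmox1, heme oxygenase 1, which frees iron from haem, was at 77.5 and 102 CPM in iFTn-MR4 hearts, against 227 and 157 CPM in iFTn-M4 hearts (-1.09 ± 0.25, SE; adjusted p = 0.12). Ftl1, the light chain of the iron store ferritin, was at 1014 and 941 CPM in iFTn-MR4 hearts, against 1821 and 1495 CPM in iFTn-M4 hearts (-0.76; adjusted p = 0.062), with counts split with another gene. The heavy chain gene Fth1 was at 1637 and 1653 CPM in iFTn-MR4 hearts and at 1691 and 1722 CPM in iFTn-M4 hearts (-0.05; adjusted p = 0.87). Tfrc, the transferrin receptor, was at 80.5 and 181 CPM in iFTn-MR4 hearts and at 81.1 and 72.4 CPM in iFTn-M4 hearts, so that 1 library stood above the other 3. Nqo1, a quinone reductase and target of the factor Nrf2, was at 45.9 and 44.7 CPM in iFTn-MR4 hearts and at 39.8 and 43.7 CPM in iFTn-M4 hearts (0.12; adjusted p = 0.67). The metallothionein gene Mt2 was at 24.7 and 25.9 CPM in iFTn-MR4 hearts, against 36.6 and 36.2 CPM in iFTn-M4 hearts (-0.52; adjusted p = 0.475), and passed with 4 libraries.

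**Figure D5:**
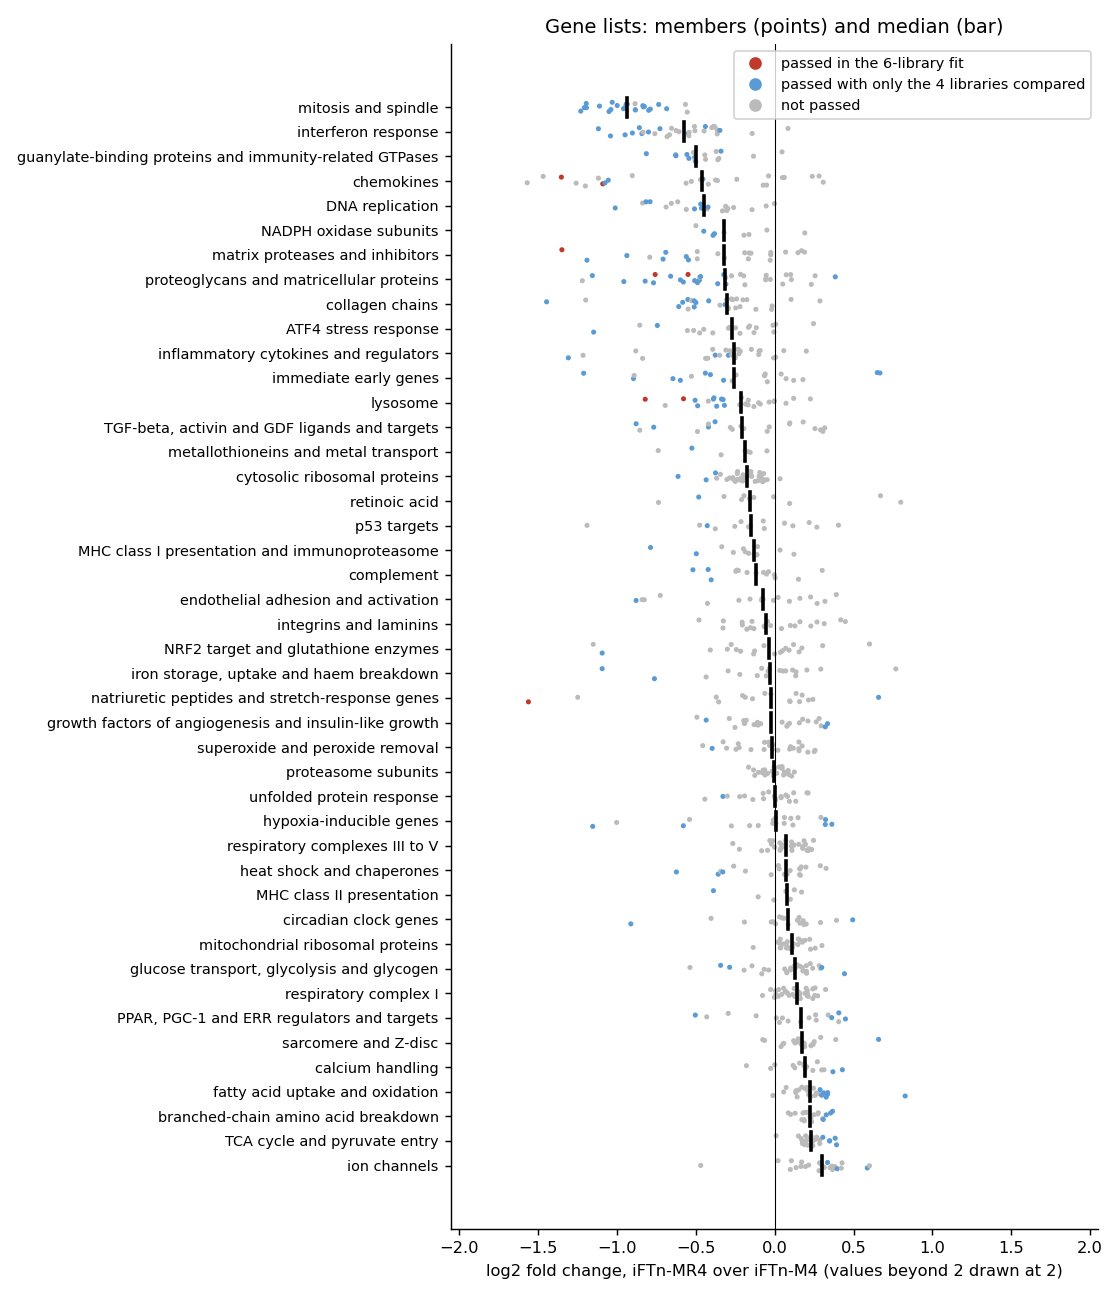
Log2 fold change of iFTn-MR4 over iFTn-M4 for the tested members of each pathway list with at least 5 of them (points), with the median as a black bar, ordered by median, in red where a member passed in the 6-library fit and in blue where it passed with only the 4 libraries. The mitosis list has the lowest median (-0.94) of those drawn, the antioxidant list lies near 0 (-0.01), and the lists of the TCA cycle and of fatty acid and branched-chain amino acid breakdown lie above 0 (0.22 to 0.23).

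Genes of energy metabolism in heart muscle were higher in most members by small amounts, and none passed in the 6-library fit. In the TCA cycle list 24 of 26 genes were higher in both iFTn-MR4 libraries, against 26.7% of tested genes, with a median of 0.23, and all 26 estimates were above 0, against 49.9%. In the lists of fatty acid uptake and oxidation and of branched-chain amino acid breakdown 24 of 27 and 18 of 21 were, with medians of 0.22 and 0.22. With 4 libraries 5, 7 and 4 members of these lists passed with higher levels, against 1.66% of all genes. DESeq2 on the same 4 libraries passed 13, 12 and 5, where 253 of all 12002 genes tested passed with higher levels. Without the first iFTn-MR4 library the counts became 0, 1 and 0, without the second also 0, 1 and 0, without the first iFTn-M4 library 3, 2 and 1, and without the second 13, 11 and 9. Idh2, the mitochondrial isocitrate dehydrogenase that makes NADPH, was at 2016 and 1817 CPM in iFTn-MR4 hearts and at 1428 and 1510 CPM in iFTn-M4 hearts (0.38 ± 0.10, SE; adjusted p = 0.145). Cpt1b, the carnitine palmitoyltransferase of muscle, was at 707 and 737 CPM in iFTn-MR4 hearts and at 559 and 586 CPM in iFTn-M4 hearts (0.34; adjusted p = 0.25). Ucp3, a mitochondrial carrier of fatty acid-burning muscle, was at 37.6 and 32.1 CPM in iFTn-MR4 hearts, against 19.4 and 19.9 CPM in iFTn-M4 hearts (0.83; adjusted p = 0.41), with iFTn-R4 libraries at 15.9 and 57.9 CPM. The insulin-responsive glucose transporter gene Slc2a4 was at 405 and 422 CPM in iFTn-MR4 hearts, against 303 and 306 CPM in iFTn-M4 hearts (0.44 ± 0.08, SE; adjusted p = 0.080). Neither group overlapped the other in these 4 genes, which was a condition for naming them.

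Respiratory complex I had 25 of 37 subunits higher in both iFTn-MR4 libraries, against 26.7% of all genes, and a median of 0.14, and 0 passed in either fit. Ion channels had a median of 0.30 over 23 genes, with 3 passing with higher levels with 4 libraries, against 1.66% of all genes. Among them Kcnj11, a pore subunit of the ATP-sensitive potassium channel, was at 169 and 183 CPM in iFTn-MR4 hearts and at 125 and 143 CPM in iFTn-M4 hearts (0.40; adjusted p = 0.11). The sum of the 13 cardiomyocyte markers was 88072 and 87521 CPM in iFTn-MR4 hearts, against 75140 and 79465 CPM in iFTn-M4 hearts, and it moved with these metabolic and channel genes. Its part in them was not tested. Cytosolic ribosomal proteins ran the other way, with 30 of 36 lower in both iFTn-MR4 libraries, against 27.8% of all genes, and a median of -0.18. With 4 libraries 3 passed with lower levels, against 3.52% of all genes.

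Immediate early genes, which cells transcribe within minutes of a stimulus, went both ways. Egr2, an early growth response factor, was at 4.24 and 5.21 CPM in iFTn-MR4 hearts, against 9.18 and 12.7 CPM in iFTn-M4 hearts (-1.21; adjusted p = 0.082). Fos was at 22.2 and 18.5 CPM in iFTn-MR4 hearts, against 12.99 and 12.6 CPM in iFTn-M4 hearts (0.67; adjusted p = 0.095). Neither overlapped, which was a condition for naming them. Of the list 0 of 20 passed. With 4 libraries 7 of 19 passed with lower and 2 with higher levels, against 3.52% and 1.66% of all genes. The 7 became 4 with DESeq2, and 1 and 0 without the first or the second iFTn-MR4 library.

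The 1093 genes that the table of the PBS hearts does not list were nearly silent in these hearts. Of them 486 had no count in any of the 4 libraries, 1085 had at most 10 counts in all, and 2 had enough to be tested. Neither changed. Xntrpc had 0 counts in both iFTn-MR4 libraries and in both iFTn-R4 libraries, against 17.1 and 25.6 expected counts in the iFTn-M4 libraries, and did not pass (adjusted p = 0.080). Its counts are split with another gene, which makes the value uncertain, and it passed with 4 libraries. Duxbl3 had 2.44 and 20.2 expected counts in iFTn-MR4 hearts and 6.54 and 12.1 in iFTn-M4 hearts, also split, and the groups overlapped. Sln, described above, had the most counts of these genes.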

How the data were processed

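Heart RNA of 2 iFTn-MR4 and 2 iFTn-M4 libraries was compared, with 2 iFTn-R4 libraries in the fit. Per the submitters' processing notes the tools include HISAT2 2.1.0, Bowtie2 2.2.5 and RSEM 1.2.8, with the build GRCm38.p6. Whether strand was used is not given in the sources used here. The authors deposited expected counts per gene beside FPKM and TPM values, in a table separate from that of the PBS hearts. Of the expected counts 4.85% were not whole (tolerance 1e-09), which marks 1179 genes as sharing reads with another gene, called split here. Counts were rounded to whole numbers.

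Genes were filtered with filterByExpr, scaled by TMM and tested with the quasi-likelihood test of edgeR 4.0.16 (R 4.3.3) over 6 libraries, with Benjamini-Hochberg adjustment over all 13846 genes tested. The fit had 3 residual degrees of freedom and a biological coefficient of variation of 8.71%. The test was tried on simulated data. Settings tried beside it were other scalings and filters, DESeq2 1.42.0, limma 3.58.1 on log2(value + 0.5) of TPM and FPKM, other sets of libraries, a replicate block, a length offset and the removal of split genes. The robust fit, and the block, DESeq2 and left-out libraries within the 4-library fit, were added after seeing the data.

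The comparison, 35 single genes and 65 gene lists (1134 of 1150 names in the table) were chosen with earlier results of these data known. The rule named the 35, the called genes with the largest changes at 5 CPM or more (up to 10 each way) and up to 4 per list with at least 3 members past the threshold. No list met this in the 6-library fit, so that step used the 4-library calls, a change made after seeing the data. Genes taken by size of change or by list also needed whole counts and groups that did not overlap. A lack of overlap is thus no further result for those genes. RefSeq matched 17738 of 17788 genes, and gave promoters for 14017. Some results are not reported here.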

Additional observations from a re-analysis of the deposited data

How the results depend on the processing

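The number of genes changed, 27 (1 higher and 26 lower in iFTn-MR4 hearts), was 27 with RLE scaling, 24 at a minimum of 5 CPM, 37 with plain library size, 32 without split genes, 68 (3 and 65) without a filter, 46 (3 and 43) with the robust fit, 51 (3 and 48) with all 8 libraries and 245 (51 and 194) with DESeq2. All 8 libraries lost Ccl7, Ccl12 and Depp1, and the 5 CPM minimum lost Ccl7, Ccl12 and Ccn2. The length offset left 6 (1 and 5), and limma on TPM or on FPKM left 3 (0 and 3). With 4 libraries 706 (226 and 480) passed, or 609 (253 and 356) with DESeq2. Without 1 library the 6-library fit gave 0 to 10 genes where it was an iFTn-MR4 or iFTn-M4 library, 722 (227 and 495) without the first iFTn-R4 library and 724 (228 and 496) without the second. Without the second iFTn-MR4 library 0 passed with edgeR, and 1086 had an unadjusted p under 0.05. The 4-library fit gave 212 (36 and 176) without the first iFTn-MR4 library, 77 (15 and 62) without the second, 457 (134 and 323) without the first iFTn-M4 library and 1841 (802 and 1039) without the second, where a lone sample is assumed to vary like the other group. All 27 genes kept their direction in every setting that tested them. The cause of these shifts was not tested.

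With a replicate block 78 genes (3 and 75) passed, and 890 (318 and 572) with 4 libraries. Same-numbered samples share only a number: the correlations of their deviations were -0.0113 for iFTn-MR4 with iFTn-M4, 0.0825 for iFTn-MR4 with iFTn-R4 and 0.131 for iFTn-M4 with iFTn-R4.

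Signs that turned belong to genes that did not pass. With the length offset, which moved the median of all genes by 0.066, these were Sod1 (0.11), Sod3 (0.037), Txnrd1 (0.039), Fth1 (0.040) and Ankrd1 (0.016). Without single libraries Sod1 ran from -0.10 to 0.076, Sod3 from -0.12 to 0.036, Txnrd1 from -0.10 to 0.041, Il1b from -0.69 to 0.43 and S100a8 from -1.29 to 0.75. The 4-library fit gave Sod3 0.035 and Txnrd1 0.029 without the first iFTn-MR4 library, Sod1 0.078 without the second, and Sod1 0.026, Txnrd1 0.044, Il1b 0.43 and S100a8 0.76 without the first iFTn-M4 library. Genes near the 3-count floor of 0.207 to 0.227 CPM could not be compared at this depth.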

Other observations

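Among hypoxia-inducible genes levels lay on both sides. Ddit4, an inhibitor of the growth kinase mTORC1, was at 24.1 and 22.1 CPM in iFTn-MR4 hearts, against 42.3 and 60.5 CPM in iFTn-M4 hearts (-1.15; adjusted p = 0.059), while Vegfa, the endothelial growth factor, was at 504 and 520 CPM in iFTn-MR4 hearts, against 403 and 418 CPM in iFTn-M4 hearts. Both passed with 4 libraries and neither in the 6-library fit. The 20 hypoxia-inducible genes that hold both had a median of 0.01. With 4 libraries 3 passed with higher levels, against 1.66% of all genes, and 2 with lower levels, against 3.52%. Endothelial markers had a median of 0.11 over 12 genes, with 0 passing in either fit. T and NK cell markers summed to 10.9 and 9.75 CPM in iFTn-MR4 hearts and to 11.8 and 13.3 CPM in iFTn-M4 hearts, with 0 of 10 tested passing in the 6-library fit and 0 of 6 with 4 libraries. In the ATF4 stress response list 11 of 20 genes were lower in both iFTn-MR4 libraries and 1 was higher, against 27.8% and 26.7% of all genes. Of that list 0 passed in the 6-library fit and 2 passed with lower levels with 4 libraries, against 3.52% of all genes. Proteasome subunits had a median of 0.00 over 27 genes and mitochondrial ribosomal proteins one of 0.11 over 25, with 0 passing in either fit.

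The following genes were chosen after their values were seen, and passed with 4 libraries only. Sprr1a, a proline-rich protein known from stressed heart muscle, was at 14.02 and 6.03 CPM in iFTn-MR4 hearts, against 25.7 and 21.7 CPM in iFTn-M4 hearts, and at 73.7 and 70.7 CPM in iFTn-R4 hearts. Kcnn4, a calcium-activated potassium channel of leukocytes and fibroblasts, was at 2.96 and 3.65 CPM in iFTn-MR4 hearts, against 8.75 and 8.43 CPM in iFTn-M4 hearts. A2m, the protease inhibitor alpha-2-macroglobulin, was at 6.97 and 4.98 CPM in iFTn-MR4 hearts, against 1.58 and 2.76 CPM in iFTn-M4 hearts. Cntn2, a contactin known from the heart's conduction system, was at 13.1 and 9.15 CPM in iFTn-MR4 hearts, against 5.45 and 5.25 CPM in iFTn-M4 hearts. Tuba8, an alpha tubulin of muscle, was at 161 and 234 CPM in iFTn-MR4 hearts, against 114 and 123 CPM in iFTn-M4 hearts. Sox7, an endothelial transcription factor, was at 45.9 and 48.5 CPM in iFTn-MR4 hearts, against 29.6 and 32.2 CPM in iFTn-M4 hearts. That the groups do not overlap in these 6 genes follows from how they were chosen and is no further result.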
